A study of Mus musculus with 6 samples.

Results

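The GABA and glutamate receptor genes are the set of genes that encode the receptors for the brain's main inhibitory and main excitatory transmitter. They were taken as all gene symbols that begin with Gabr, Gabbr, Gria, Grin, Grik, Grid or Grm followed by the letters or digits of a subunit, with at least 50 UMIs (unique molecular identifiers, each tagging 1 captured RNA molecule) over the 6 libraries. Of 49 symbols that matched the pattern among 27998 genes, 40 reached that minimum, and they held 169087 UMIs. The members were 14 of 16 subunits of the GABA-A receptor, 1 of 3 rho subunits, both subunits of the GABA-B receptor, all 4 AMPA receptor subunits, all 5 kainate receptor subunits, 5 of 7 NMDA receptor subunits, both delta receptors and 7 of 8 metabotropic glutamate receptors. The 7 receptor genes under the minimum were Gabrr1 with 32 UMIs, Grin3b with 17, Grin2d with 11, Gabrp with 2, Gabra6 and Grm6 with 1 each, and Gabrr3 with 0. Grid2ip and Grin1os, with 11 UMIs each, also matched the pattern but are no receptor subunits.

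The libraries came from C57BL/6 mice of 10 weeks. Stress mice went through 21 days of chronic social defeat, in which a mouse is repeatedly attacked by an aggressive resident, and control mice did not. Single cells came from 3 tissues, namely hand-dissected hypothalamus around the paraventricular nucleus (PVN), pituitary and adrenal gland. Each tissue had 1 stress library and 1 control library, each from the pooled tissue of 5 mice. The number of animals behind a value is therefore 5 in 1 pool, there is no spread between replicates, and no difference could be tested. Intervals below are exact 95% intervals that cover counting error only.

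GABA-A receptors are chloride channels of 5 subunits, usually alpha, beta and a gamma subunit, and GABA-B receptors couple to G proteins and need both of their subunits. AMPA, kainate and NMDA receptors are cation channels opened by glutamate, and the metabotropic glutamate receptors act through G proteins. In the PVN, GABA inputs hold back the neurons that release corticotropin-releasing hormone and glutamate inputs drive them, while endocrine cells and glia carry some of the same receptors.

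The PVN stress and control libraries held 3612 and 3653 barcodes, those of the pituitary 5103 and 5202, and those of the adrenal gland 3183 and 2330. Between 29059956 and 53244403 UMIs were counted per library, with a median of 5593 to 10288 UMIs per barcode. The filters left 3459 stress and 3512 control cells of the PVN. For the pituitary they left 4880 and 4944, and for the adrenal gland 2742 and 2161. Pairs of libraries shared 10 to 39 barcodes. The adrenal stress library lost 378 barcodes to the limit on mitochondrial UMIs, and the adrenal control library lost 130. Receptor genes accounted for 72492 and 69822 UMIs of the PVN stress and control libraries, 10581 and 11622 of the pituitary ones, and 2480 and 2090 of the adrenal ones.

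Cells were grouped into classes by clustering without the receptor genes and were named from marker genes, so a name such as "neuron-like" rests on those markers. A level is the gene's UMIs per 1000000 UMIs of the class (CPM). Differences are given as log2 ratios, stress over control. A gene was called past the fold when its log2 ratio was at least 0.5 in size, its interval lay on 1 side of 0 and both libraries together held at least 50 of its UMIs in the class. UMIs were captured near the 3′ end of transcripts, so their number does not scale with transcript length, although capture can still differ between genes. Snap25, a synaptic vesicle fusion protein that marks neurons, stood at 1148 and 1067 CPM in neuron-like cells of the PVN and at no more than 136 CPM in any other PVN class. Other markers of the neuron list were less clean. Map2 stood at 198 and 195 CPM in neuron-like cells but at 254 CPM in another class. Elavl4 stood at 159.6 and 140.5 CPM and reached 107 CPM in another class. The oligodendrocyte marker Mog, the precursor marker Pdgfra and the tanycyte marker Rax stood at 2198 and 2381, 626 and 649, and 261 and 209 CPM in their own classes and at no more than 53, 11.8 and 14.7 CPM in any other, but Aqp4, at 706 and 666 CPM in astrocyte-like cells, reached 482 CPM in another class. The tanycyte markers Scn7a (3.46 and 11.9 CPM) and Vcan (81.4 and 59.7 CPM) were higher outside their class, at up to 113 and 326 CPM. The precursor marker Cspg4 (179.8 and 206 CPM) reached 177 CPM in another class. Pituitary cells of the stem or folliculostellate-like class had high Sox2 (756 and 729.5 CPM) but S100b at 0 in both libraries. Cyp11b2, the aldosterone synthase that defines the zona glomerulosa, reached only 55.9 and 35.1 CPM in the class named for it and 33.4 CPM in another.

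Among the 8 PVN classes drawn in the map of levels, the receptor genes summed to most in neuron-like cells, at 3311 CPM in the stress and 3119.8 CPM in the control library. Oligodendrocyte precursor-like cells followed at 2136 and 2005 CPM, and astrocyte-like cells at 1992 and 2093 CPM. Tanycyte-like cells reached 786 and 817 CPM, oligodendrocyte-like cells 605 and 615 CPM, and ependymal-like cells 446 and 393 CPM. Microglia-like cells still showed 233 and 202 CPM, and vascular endothelial-like cells 199 and 193 CPM. Gria2 was found in 96.3% of stress and 95.6% of control neuron-like cells, at a median depth of 10741 and 10789 UMIs. In microglia-like cells, which should lack it, it was found in 4.62% and 10.2% at 3571 and 4334 UMIs, and in endothelial-like cells in 5.42% and 11.2% at 4766 and 5448 UMIs. With each cell thinned to 1000 UMIs, the Gria2 shares were 41.8% and 38% in neuron-like cells, and 0.578% and 1.86% in microglia-like cells.

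**Figure D1:**
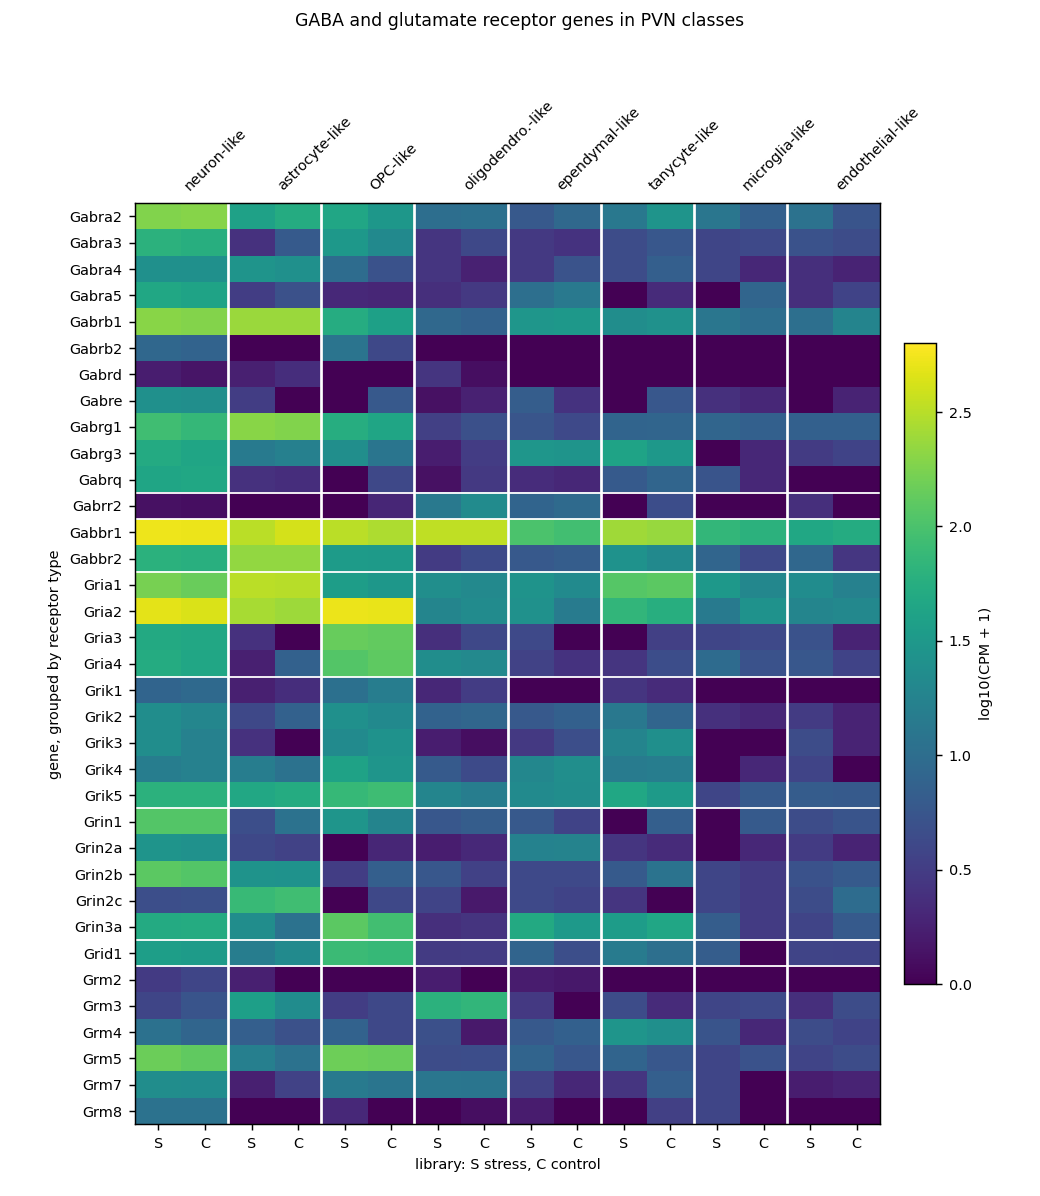
Levels of 35 receptor genes in 8 cell classes of the PVN, as the log10 of CPM plus 1, with the stress (S) column left of the control (C) column in each class and white lines between receptor types. Neuron-like cells carry nearly every gene, precursor-like cells are brightest at Gria2, and astrocyte-like cells at Gabbr1, Gria1 and Gria2.

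Each receptor gene had 1 PVN class in which its level over both libraries was highest. Neuron-like cells held that place for 17 of 40 genes, precursor-like cells for 12, astrocyte-like cells for 7, oligodendrocyte-like cells for 2, tanycyte-like cells for 1 and pericyte-like cells for 1. Of the 14 GABA-A subunits, 10 were highest in neuron-like cells, and so were Gabbr1, Grin1, Grin2a, Grin2b, Grm2 and Grm8. The genes highest in precursor-like cells included all 5 kainate subunits, Grid1, 3 of 4 AMPA subunits, Grin3a and Grm5. The astrocyte-like genes were Gria1, Gabra4, Gabrb1, Gabrd, Gabrg1, Gabbr2 and Grin2c. The class was the same in both libraries for 16 of the 17 neuron-like genes, 11 of the 12 precursor-like genes and 6 of the 7 astrocyte-like genes. It was the same for Grm4 in tanycyte-like cells and for 1 of the 2 oligodendrocyte-like genes, but Gabrr2 and Grm7 were highest in different classes in the stress and control libraries. Pericyte-like cells numbered only 55 and 33, and Gabrd rested on 29 UMIs in the PVN classes.

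GABA-A receptor subunits made up the largest share of receptor RNA in neuron-like cells, at 1176 CPM under stress and 1142 CPM in controls. Among alpha subunits, which shape the GABA binding site and the response to benzodiazepines, Gabra2 had 187 and 194 CPM in the stress and control libraries. Gabra3 was lower, with 61.3 and 55.4 CPM, Gabra5 with 45.7 and 40.6 CPM and Gabra4 with 24.3 and 24.2 CPM. The beta subunits, which form the other face of the binding site, were led by Gabrb1 at 198 and 191 CPM, and Gabrb2 stood at 7.67 and 6.83 CPM. Gabrb1 thus gave 67.8% and 68% of all beta UMIs. Of the gamma subunits, Gabrg1 had 86.7 and 72.2 CPM and Gabrg3 50.2 and 43.6 CPM. Among the rarer subunits, Gabrq (theta) stood at 43.5 and 45.8 CPM and Gabre (epsilon) at 24.5 and 23 CPM. Gabrd (delta), typical of receptors outside synapses, had only 12 and 8 UMIs, and the rho subunit gene Gabrr2 held 6 and 5 UMIs. Among GABA-A subunits with at least 50 UMIs the differences were small, with the largest at Gabrg1, whose log2 ratio was 0.26 (interval 0.16 to 0.37).

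Gabbr1, the GABA-binding subunit of the GABA-B pair, was the most abundant receptor gene in neuron-like cells, with 539.8 CPM in the stress and 527 CPM in the control library. It was detected in 95.9% and 96.1% of the cells. Its partner Gabbr2, which carries the signal to the G protein, had 61 and 57 CPM, so only 10.2% and 9.76% of GABA-B UMIs came from it. Astrocyte-like cells were far more balanced, with Gabbr2 at 222 CPM in both libraries and 40.7% and 34.5% of GABA-B UMIs. In oligodendrocyte-like cells Gabbr1 stood at 341 and 339 CPM, but Gabbr2 made up 0.601% and 0.956% of the pair, or 6 of 998 and 12 of 1255 UMIs.

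AMPA receptor subunits carry fast excitation, and they summed to 754 CPM in stress and 672 CPM in control neuron-like cells. Gria2, whose edited subunit keeps calcium out of the channel, had 484 and 438 CPM, Gria1 169 and 143 CPM, Gria4 51.6 and 44.7 CPM and Gria3 49.5 and 46.4 CPM. Gria2 gave 64.2% and 65.2% of AMPA UMIs there, and 64.5% and 63.9% in precursor-like cells, where its level was 516 and 513 CPM. Those precursor-like cells also held the highest Gria3, at 139 and 133 CPM, and Gria4, at 110.3 and 128 CPM, with little Gria1. Astrocyte-like cells were Gria1-rich. They had 320.1 and 315 CPM of Gria1 beside 271 and 246 CPM of Gria2, which was 45.7% and 43.4% of their AMPA UMIs, and tanycyte-like cells went further, with 37.4% and 30.1% from Gria2. Intervals of the neuron-like and astrocyte-like shares did not overlap in either library.

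NMDA receptors need Grin1, which had 111 and 110.1 CPM in stress and control neuron-like cells. Of the Grin2 subunits that set channel kinetics, Grin2b had 124 and 111 CPM, Grin2a 27.4 and 24.9 CPM and Grin2c 3.67 and 3.79 CPM. Grin2b thus made up 80% and 79.4% of Grin2 UMIs in these cells, whereas Grin2c made up 71.9% and 75.3% in astrocyte-like cells, at 75.1 and 86.8 CPM. Grin3a, a subunit that lowers calcium flow through the channel, stood at 50.9 and 51.8 CPM in neuron-like cells. In precursor-like cells it stood at 122 and 88.7 CPM and gave 80.4% and 76.3% of the UMIs of the NMDA genes.

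Kainate receptor genes were lower. Grik5 had 62.1 and 61.5 CPM in stress and control neuron-like cells, Grik3 22.7 and 15.8 CPM, Grik2 22.4 and 18.5 CPM, Grik4 14.5 and 16.1 CPM and Grik1 6.95 and 8 CPM. Grid1, a delta receptor that binds cerebellin bridges at synapses rather than acting as a glutamate-gated channel, had 36 and 33.5 CPM. Among metabotropic receptors, the Gq-coupled Grm5 led with 148 and 129 CPM. The Gi-coupled receptors Grm7, Grm8 and Grm4 had 22.8 and 21.9, 10.3 and 10.5, and 10.2 and 7.25 CPM, and Grm3 and Grm2 had 2.85 and 4.37 and 1.97 and 2.83 CPM. Outside neurons, Grm3 was highest in oligodendrocyte-like cells at 62.3 and 69 CPM, and Grm4 in tanycyte-like cells at 27.7 and 23.9 CPM.

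Neuron-like cells fell into 11 clusters, 6 with GABA markers (1087 stress and 889 control cells) and 5 with glutamate markers (490 and 702 cells). The leading genes of some of them, such as Pmch and Hcrt, or Vip, Prok2 and Nms, belong to hypothalamic neurons outside the PVN. The cluster led by Oxt, Sst, Avp and Crh held 36 stress and 90 control cells. Receptor genes differed widely in how evenly the 9 clusters of at least 50 cells used them. Gabbr1 was the most even, from 464 to 626 CPM over both libraries, which is a 1.35-fold range. Grm8 ran from 0.421 CPM, which rests on 1 UMI, to 20.4 CPM. Grik3 had 49.4 CPM in a GABAergic cluster led by Slc32a1 and Gad1 and 1.26 CPM, which rests on 3 UMIs, in a glutamatergic cluster led by Grp and Pdyn. Summed over the GABAergic clusters, Grik3 had 32.1 and 26.5 CPM under stress and in controls, and over the glutamatergic ones 4.77 and 4.14 CPM. Grin2c reached 42.5 CPM in the Vip, Prok2 and Nms cluster, against a median of 1.64 CPM over the 9 clusters. Grm3 was highest, at 17.2 CPM, in the Oxt and Avp cluster. That Slc32a1 and Gad1 cluster was also the highest of the 9 for Gria2, at 914 CPM, for Gabrb1, at 321 CPM, and for Grm5, at 282 CPM. Gabra2 reached 344 CPM in a glutamatergic cluster led by Npvf and Hcrt. The receptor genes took no part in the clustering, but other genes of the same cells did, so these levels are a description.

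Stress and control neuron-like cells differed little in receptor RNA. Of 38 receptor genes with enough UMIs, 28 had a log2 ratio above 0 and 10 did not, where 55.5% of all genes had one above 0, and the median was 0.08, beside 0.02 over all 12937 genes with enough UMIs. Grik3 was past the fold on the higher side and Grm3 on the lower side, which is 2 of 38 genes, while 2.82% of all genes passed (1.16% higher and 1.66% lower). Grik3, a kainate receptor subunit found before and after the synapse (ENSMUSG00000001985, chromosome 4, 125490700 to 125714173, plus strand), had 414 UMIs in the stress and 297 in the control library. Its log2 ratio was 0.52 (0.30 to 0.74), and 20.4% of stress and 14.3% of control neuron-like cells held a UMI of it. The pair of GABAergic clusters with the most Grik3, among clusters of at least 50 cells, made up 20.7% and 25% of stress neurons and 15.1% and 18.4% of control neurons. With the clusters given the same shares in both libraries the ratio was 0.25, and within the GABAergic clusters it was 0.28 (0.05 to 0.51). Grm3, a Gi-coupled receptor (ENSMUSG00000003974, chromosome 5, 9485541 to 9725170, minus strand), had 52 and 82 UMIs and a log2 ratio of -0.61 (-1.15 to -0.10). The cluster led by Oxt, Sst, Avp and Crh made up 2.28% of stress and 5.66% of control neurons, and without it the Grm3 ratio was -0.05. Grm4 (0.50, 0.17 to 0.83) was just under the fold on the higher side. With cells thinned to 1000 UMIs it stood at -0.51. On the lower side Grm2 (-0.51, -1.17 to 0.12) and Grik1 (-0.20, -0.55 to 0.15) came next to Grm3. With cells thinned Grm2 stood at 0.38, and after subtraction of the value in the remaining PVN cells Grik1 stood at 0.57.

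**Figure D2:**
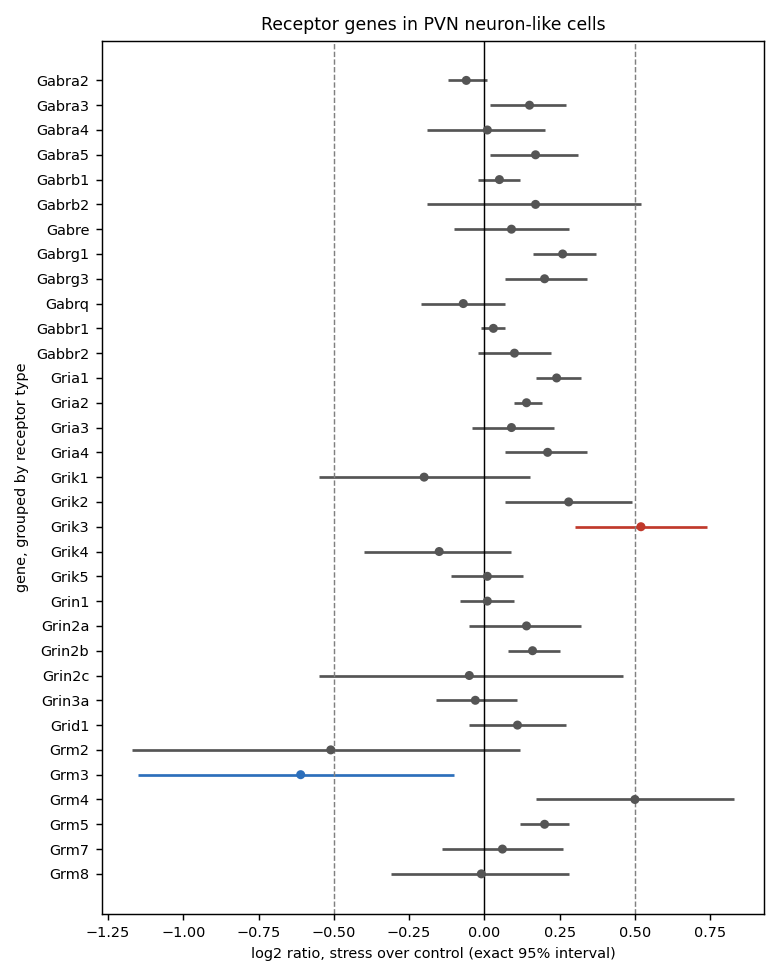
Log2 ratio of the stress over the control level of 33 receptor genes in PVN neuron-like cells, with exact 95% intervals for counting error and dashed lines at the fold used for calls. Points sit between -0.61 and 0.52. Grik3, in red, and Grm3, in blue, are past the fold.

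By receptor type, the summed AMPA genes had a log2 ratio of 0.17 (0.13 to 0.20) and the metabotropic genes 0.19 (0.13 to 0.25), whereas GABA-A genes stood at 0.04 (0.01 to 0.07), GABA-B genes at 0.04 (0.00 to 0.08) and NMDA genes at 0.07 (0.02 to 0.13). In the glutamatergic clusters alone, the level of Gria1 was 161 CPM under stress and 121 CPM in controls, a log2 ratio of 0.42 (0.29 to 0.54). In the same clusters Grm5 had 153 and 111 CPM (0.46, 0.33 to 0.59) and Gabra5 42.3 and 30.3 CPM (0.48, 0.23 to 0.73). The ratios of Gria1, Grm5 and Gabra5 were under the fold. Grm3 went the other way there, with 3.02 and 5.71 CPM (-0.89, -1.76 to -0.13). Within single glutamatergic clusters 3.78% to 6.2% of all genes were past the fold. In the GABAergic clusters the ratios of Gria1, Grm5 and Gabra5 were 0.08, 0.01 and -0.08. Grm2 had 1.25 and 2.75 CPM in those clusters (-1.11, -2.15 to -0.17). Grm3 and Grm2 held only 134 and 89 UMIs over all these clusters. The makeup of the glutamatergic cells differed between the libraries, since the cluster led by Grp and Pdyn held 88 stress and 174 control cells, and the part of that makeup in these ratios was not tested.

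In PVN glia, 3 receptor genes were past the fold, among 10 with enough UMIs in oligodendrocyte-like cells and 10 in ependymal-like cells. In oligodendrocyte-like cells Gabrr2, a rho subunit that forms GABA channels of its own (ENSMUSG00000023267, chromosome 4, 33062999 to 33095865, plus strand), had 36 UMIs under stress and 79 in controls. That was 12.4 against 21.5 CPM and a log2 ratio of -0.79 (-1.41 to -0.21), in a class where 1.63% of all genes were past the fold on the lower side. In ependymal-like cells, where 2.71% of genes passed on the higher side, Grin3a had 49.4 and 31.9 CPM (78 and 61 UMIs, log2 ratio 0.63, 0.13 to 1.14). Gria2 had 25.4 and 13.6 CPM there (40 and 26 UMIs, 0.89, 0.15 to 1.67), but 0.10 without the cell filters and 0.26 with doublets kept. Gria2 was also found in microglia-like cells, which should lack it, in a smaller share of stress than of control cells. The part of RNA from other cells in the ependymal-like ratio was not tested. None of 13 genes with enough UMIs in astrocyte-like cells, 17 in precursor-like cells, 5 in tanycyte-like cells, 1 in microglia-like cells and 2 in endothelial-like cells was past the fold, beside 3.86%, 4.86%, 5.44%, 7.4% and 4.3% of all genes of those classes. With 1 library a group no test was run for any of these. The clearest ratio among the genes that did not pass was that of Gabbr1 in astrocyte-like cells, with 322 CPM under stress and 419.9 CPM in controls (-0.38, -0.59 to -0.17).

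**Figure D3:**
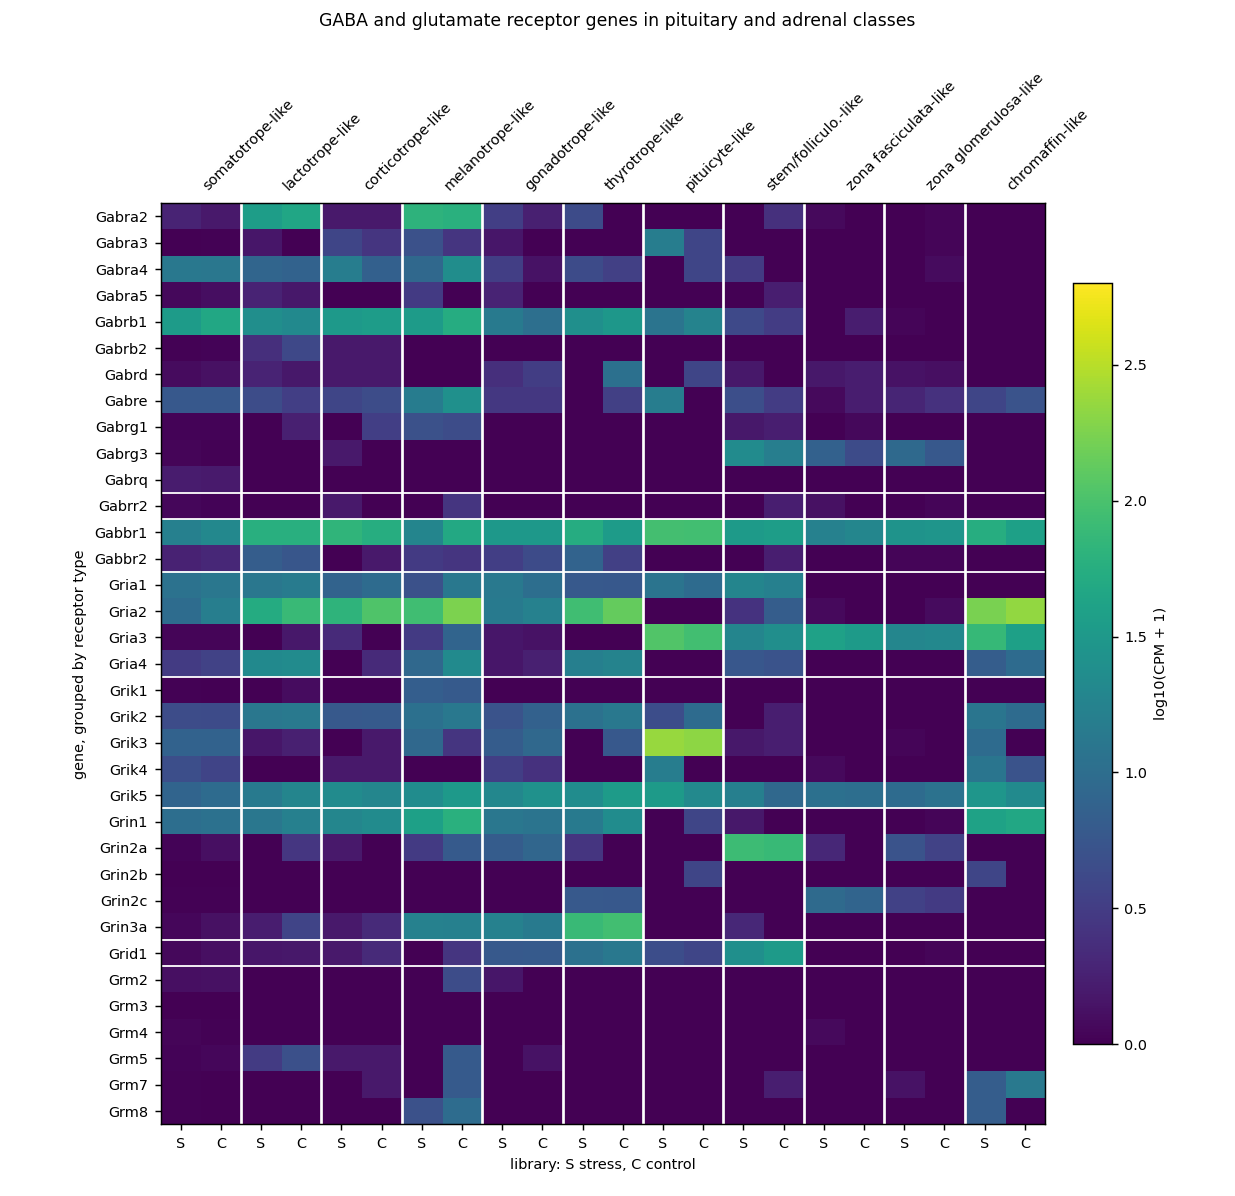
Levels of 35 receptor genes in 8 pituitary and 3 adrenal classes, as the log10 of CPM plus 1, with the stress (S) column left of the control (C) column in each class. Gria2 is bright in most hormone-producing pituitary classes and in chromaffin-like cells, Grik3 in pituicyte-like cells, and Gria3 in pituicyte-like cells and in the adrenal cortex.

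The pituitary carried a smaller and more uneven set of receptors. Receptor genes summed to 457 CPM in stress and 687 CPM in control melanotrope-like cells, 455 and 532 CPM in thyrotrope-like cells, 383 and 430.0 CPM in lactotrope-like cells, 329 and 361 CPM in corticotrope-like cells, 209 and 213 CPM in gonadotrope-like cells, and 162 and 198 CPM in somatotrope-like cells. The leading subunit differed between classes. Somatotrope-like cells, which release growth hormone, drew 91.4% and 92.4% of their alpha UMIs from Gabra4, and lactotrope-like cells, which release prolactin, 74.4% and 72.8% from Gabra2. Melanotrope-like cells of the intermediate lobe also used Gabra2, at 63.4 and 58.9 CPM. Gabrb1 gave 61.7% and 68.1% of beta UMIs in somatotrope-like cells.

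Glutamate receptor genes marked classes of the pituitary too. Grin3a gave 79.7% of NMDA UMIs in stress and 77.1% in control thyrotrope-like cells, at 78.9 and 89.4 CPM, and no other pituitary class exceeded 16.1 CPM in either library. Grin1 was highest in melanotrope-like cells, at 37.6 and 58.9 CPM. Stem or folliculostellate-like cells drew all of their Grin2 UMIs, 158 and 107, from Grin2a, at 83 and 76 CPM. They held 1 and 0 UMIs of Grin1 and 2 and 0 of Grin3a. Pituicyte-like cells, the glia of the posterior lobe, had 232 and 208 CPM of Grik3, against 22.7 and 15.8 CPM in PVN neuron-like cells, and 109 and 88.2 CPM of Gria3. No Gria2 UMI was found among their 33 and 34 AMPA UMIs, and in 0 of 40 and 0 of 53 cells, which allows a share of cells with a UMI of up to 8.81% and 6.72% and sets no limit on cells that express the gene.

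Gria2 differed between the pituitary libraries in more classes than any other receptor gene. It was past the fold on the lower side under stress in 5 of 6 hormone-producing classes and had a log2 ratio below 0 in all 6. Melanotrope-like cells had 87.1 CPM under stress and 177 CPM in controls (44 and 102 UMIs, -1.01, -1.56 to -0.50), and 44.9% against 68.7% of cells held a UMI. Corticotrope-like cells, which release ACTH, had 65.7 and 107 CPM (116 and 187 UMIs, -0.70, -1.05 to -0.36). Somatotrope-like cells, where the median of all genes was -0.21, had 8.87 and 14.9 CPM (303 and 466 UMIs, -0.75, -0.96 to -0.54). In each of these classes the interval of the stress level lay under that of the control level. Thyrotrope-like cells had 87.3 and 135 CPM (52 and 56 UMIs, -0.63, -1.21 to -0.06) and lactotrope-like cells 51.6 and 77.6 CPM (224 and 307 UMIs, -0.59, -0.84 to -0.33). Gonadotrope-like cells did not pass, with 13.4 and 16 CPM (29 and 43 UMIs, -0.25, -0.99 to 0.45). The share of all genes past the fold on the lower side was 14.3% in melanotrope-like, 4.31% in corticotrope-like, 9.07% in somatotrope-like, 2.82% in thyrotrope-like, 4.19% in lactotrope-like and 3.52% in gonadotrope-like cells. Between 2.87% and 5.02% of all genes had a lower ratio than Gria2 in the 5 classes where it passed, and 21.1% in gonadotrope-like cells. The 6 classes come from the same pair of libraries and are not independent of each other.

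**Figure D4:**
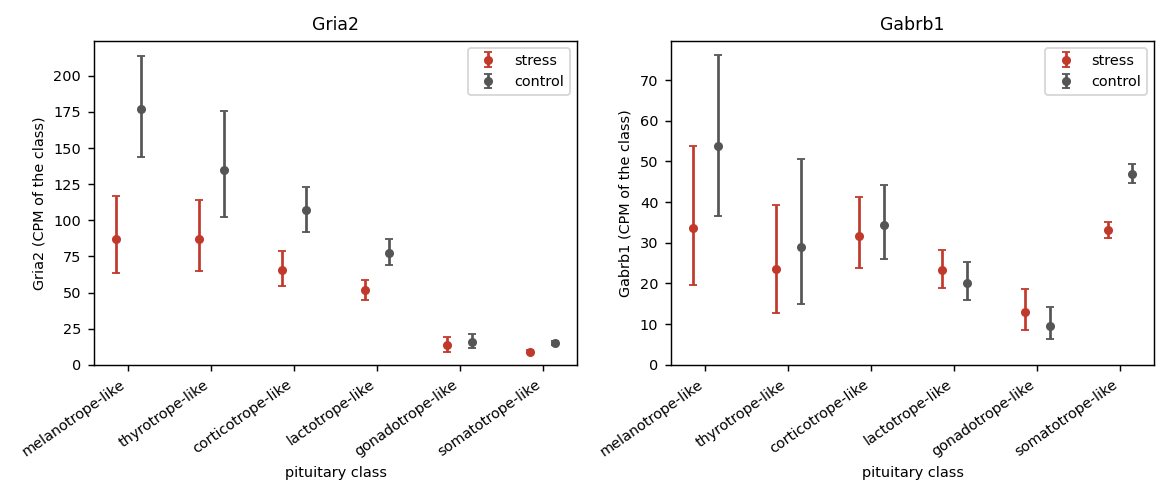
Levels of Gria2 (left) and Gabrb1 (right) in CPM in 6 hormone-producing pituitary classes, stress in red left of control in grey, with exact 95% Poisson intervals for counting error. Gria2 lies lower under stress in every class, with overlapping intervals in gonadotrope-like and thyrotrope-like cells, while Gabrb1 intervals are apart in somatotrope-like cells.

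Several measurements stand beside the Gria2 result. In macrophage-like and endothelial-like cells of the pituitary, which should lack Gria2, it was found in 1.82% of stress and 1.75% of control cells and in 1.61% and 1.92%, which is 2 cells in each group. The shares in somatotrope-like cells were 10.2% and 14.7%, in lactotrope-like cells 33.4% and 44.6%, and in corticotrope-like cells 34.6% and 44.5%. The median depth of the 6 hormone-producing classes lay between 5850.0 and 12213 UMIs, and that of macrophage-like cells was 4419 and 4288 UMIs. Fos and Jun, which are induced within minutes by cell activation and handling, were higher under stress in all 6 classes. The smallest Fos ratio was 0.60, in melanotrope-like cells (317 and 209 CPM), and the largest was 2.96, in thyrotrope-like cells (423 and 53.2 CPM). Prl, the lactotrope hormone, stood at 6968 CPM in stress and 22246 CPM in control thyrotrope-like cells and at 7771 and 12456 CPM in melanotrope-like cells. The part of these measurements in the Gria2 result was not tested. When each library was clustered on its own, the melanotrope-like ratio was -0.43 and the thyrotrope-like ratio -0.28. With the ratio in all other pituitary cells subtracted, which by construction removes a difference that classes share, the Gria2 value was -0.37 in melanotrope-like, -0.15 in somatotrope-like, -0.03 in corticotrope-like, 0.15 in lactotrope-like, 0.08 in thyrotrope-like and 0.46 in gonadotrope-like cells.

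Gria2 (ENSMUSG00000033981) lies on the minus strand of chromosome 3 (80681450 to 80802835). Because it was past the fold in the most classes, the 250 bases before its start site are shown, 5′ to 3′ on the gene's strand, beside those of Gria4, another AMPA subunit. They are followed by those of Grik3 and Gabrg3, which were past the fold on the higher side in neuron-like cells and in the named adrenal zones. The sequences are RefSeq's on GRCm38.p6, where 25 of the 40 genes had 32 promoters. Capitals mark matches on either strand to 4 motifs, namely GGGCGG (the GC box), TATAAA (the TATA box), TGACGTCA (the cAMP response element) and TGANTCA (the AP-1 site bound by Fos and Jun).
Gria2 (chr3:80802836-80803085, minus strand): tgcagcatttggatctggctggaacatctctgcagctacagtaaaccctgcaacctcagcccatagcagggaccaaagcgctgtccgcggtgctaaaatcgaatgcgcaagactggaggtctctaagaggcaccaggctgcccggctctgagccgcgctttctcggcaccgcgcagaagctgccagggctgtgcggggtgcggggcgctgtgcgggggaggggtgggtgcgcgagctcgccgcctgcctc
Gria4 (chr9:4796235-4796484, minus strand): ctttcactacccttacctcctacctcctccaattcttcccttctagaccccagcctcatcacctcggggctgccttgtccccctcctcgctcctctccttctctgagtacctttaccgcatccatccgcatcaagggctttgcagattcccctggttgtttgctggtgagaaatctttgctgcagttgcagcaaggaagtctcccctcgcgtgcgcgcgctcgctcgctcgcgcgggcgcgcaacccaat
Grik3 (chr4:125490446-125490695, plus strand): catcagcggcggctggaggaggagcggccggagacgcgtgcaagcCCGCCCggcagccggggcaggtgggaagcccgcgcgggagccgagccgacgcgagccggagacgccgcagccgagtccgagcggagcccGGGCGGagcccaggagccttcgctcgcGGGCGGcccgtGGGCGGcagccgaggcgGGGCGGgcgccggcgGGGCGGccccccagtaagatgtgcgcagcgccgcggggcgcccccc
Gabrg3 (chr7:57387216-57387465, minus strand): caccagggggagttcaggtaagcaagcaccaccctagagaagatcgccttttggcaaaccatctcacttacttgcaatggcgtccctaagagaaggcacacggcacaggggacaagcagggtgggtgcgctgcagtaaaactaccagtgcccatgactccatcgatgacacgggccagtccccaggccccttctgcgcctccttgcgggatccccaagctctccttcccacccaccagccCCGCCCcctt
No motif of the 4 was found in the windows of Gria2 and Gria4. The capitals in Grik3 and Gabrg3 are 6 and 1 matches to the GC box, which stood in 17 of 32 receptor gene promoters (53.1%) and in 32.7% of 32851 mouse promoters of this length. The TATA box stood in 9.38% of receptor gene promoters and 12.4% of all, the AP-1 site in 3.12% and 6.75%, and the cAMP response element in 0% and 1.55%. A match is a run of letters and does not show that a factor is bound.

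Among the other AMPA genes, Gria1 had 10.3 CPM in stress and 11.9 CPM in control somatotrope-like cells (log2 ratio -0.21, -0.43 to 0.00), where the median of all genes was also -0.21. Gria4 had 20.1 and 21.5 CPM in lactotrope-like cells (-0.10, -0.55 to 0.35). The share of AMPA UMIs from Gria2 in somatotrope-like cells was accordingly 41.6% under stress (38.0% to 45.3%) and 50.5% in controls (47.2% to 53.8%), with intervals that did not overlap. In lactotrope-like cells the shares were 61.9% and 68.5%, with intervals that did. Corticotrope-like cells, at 89.2% and 91.7%, and melanotrope-like cells, at 86.3% and 81.6%, drew nearly all of their AMPA UMIs from Gria2 in both libraries. In melanotrope-like cells, which had the lowest Gria2 ratio, the share from Gria2 was thus not lower under stress.

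**Figure D5:**
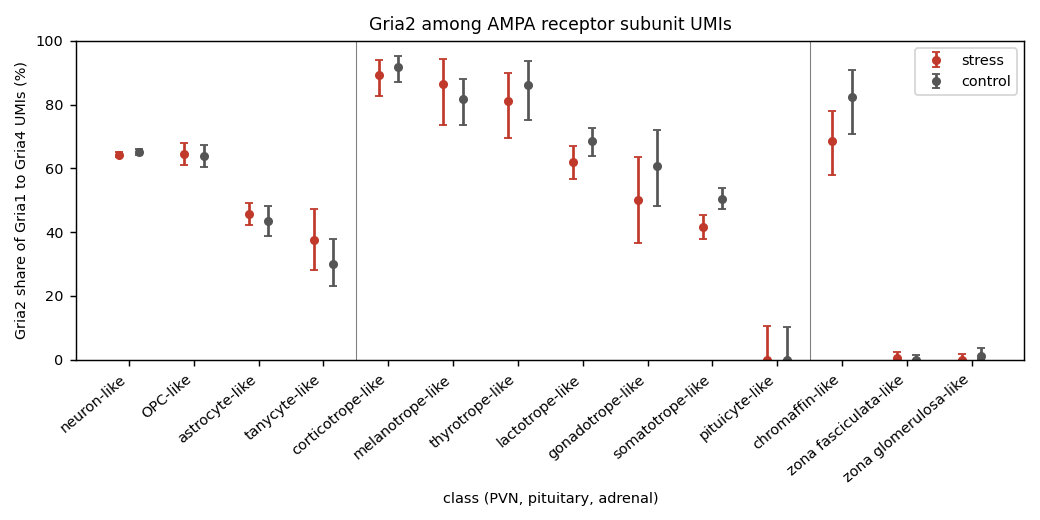
Share of Gria1 to Gria4 UMIs that came from Gria2, in percent, in 14 classes of the PVN, the pituitary and the adrenal gland, stress in red left of control in grey, with exact 95% binomial intervals. The share is near 64% in neuron-like and precursor-like cells, above 80% in corticotrope-like and melanotrope-like cells, and near 0 in pituicyte-like and adrenal cortex cells.

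Beside Gria2, Gabrb1 was past the fold on the lower side in a hormone-producing class. No receptor gene passed on the higher side, where 3.3% of all genes passed in corticotrope-like, 2.35% in gonadotrope-like, 2.19% in lactotrope-like, 6.96% in melanotrope-like, 0.785% in somatotrope-like and 3.59% in thyrotrope-like cells. Gabrb1 (ENSMUSG00000029212, chromosome 5, 71658113 to 72149037, plus strand) had 33.1 CPM in stress and 47 CPM in control somatotrope-like cells (1131 and 1469 UMIs, -0.51, -0.62 to -0.39). In that class the median of all genes was -0.21, and 9.86% of genes were past the fold in either direction. With scaling by the median of ratios the Gabrb1 value was -0.30. In the 3 other classes with enough UMIs the Gabrb1 ratios were -0.11, 0.20 and 0.41, none past the fold, and melanotrope-like and thyrotrope-like cells had too few UMIs to be called. Its first exon overlaps one of Gabra4 on the opposite strand, and the strand setting of the counting was not given in the sources used here. No gene was past the fold among 6 with enough UMIs in stem or folliculostellate-like cells and 3 in pituicyte-like cells. Of all genes in these classes 4.76% and 7.54% were.

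In the adrenal gland, 9 receptor genes had at least 50 UMIs in the kept cells. Chromaffin-like cells, the catecholamine-producing cells of the medulla, had the highest summed level, at 475 CPM under stress and 426 CPM in controls, although they numbered only 41 and 28. Gria2 stood at 173 and 219 CPM there (61 and 52 UMIs), which was 68.5% and 82.5% of AMPA UMIs, Gria3 at 73.9 and 37.9 CPM and Grin1 at 39.8 and 46.4 CPM. Cyp11a1, the first enzyme of steroid synthesis and a marker of cortex RNA, stood at 293 and 1618 CPM in these cells. The only receptor gene with enough UMIs, Gria2, was not past the fold (-0.34, -0.90 to 0.22), beside 13.9% of all genes.

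Steroid-producing cells of the adrenal cortex carried Gria3 and almost no Gria2. In zona fasciculata-like cells, which make corticosterone, Gria3 (ENSMUSG00000001986, chromosome X, 41400854 to 41678601, plus strand) had 39.2 CPM under stress and 32.3 CPM in controls, and it gave 228 of 229 and 234 of 234 AMPA UMIs. In zona glomerulosa-like cells it had 18.3 and 19.4 CPM and gave 191 of 191 and 192 of 194. Macrophage-like cells of the same libraries held a Gria3 UMI in 0.641% and 0.333% of cells and endothelial-like cells in none of 275 and 132, beside 36.4% and 32.8% of fasciculata-like cells. Gabbr1 stood at 16 and 18.3 CPM in fasciculata-like and 26.6 and 27.7 CPM in glomerulosa-like cells with almost no Gabbr2, which had 0 of 93 and 0 of 133 UMIs of the pair in fasciculata-like cells. Grin2c had 8.25 and 7.04 CPM in fasciculata-like cells and Grin2a 4.21 and 2.53 CPM in glomerulosa-like cells. Grin1, which every NMDA receptor contains, had no UMI in fasciculata-like cells and 0 and 1 in glomerulosa-like cells. Grik5, a kainate subunit that forms channels only with another kainate subunit, had 9.8 and 9.24 CPM in fasciculata-like and 8.42 and 10.5 CPM in glomerulosa-like cells.

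Gabrg3 was the gamma subunit of the cortex, with 37 of 38 and 24 of 25 gamma UMIs in stress and control fasciculata-like cells, and all 84 and all 48 in glomerulosa-like cells. It was also the receptor gene past the fold in the named zones, on the higher side in both. Cortex clusters of 498 and 322 cells, whose fasciculata and glomerulosa marker scores were too close, stayed unnamed and count in neither zone. Over all kept adrenal cells Gabrg3 had 5.59 and 4.36 CPM (172 and 121 UMIs, 0.36, 0.01 to 0.71), which is under the fold. Over the same cells Grin2a had 2.76 and 1.26 CPM (85 and 35 UMIs, 1.12, 0.55 to 1.74). In fasciculata-like cells Gabrg3 (ENSMUSG00000055026, chromosome 7, 56716465 to 57387188, minus strand) had 6.36 CPM under stress and 3.31 CPM in controls (0.93, 0.16 to 1.75), with 3.52% of all genes past the fold on the higher side. In glomerulosa-like cells it had 8.04 and 4.86 CPM (0.72, 0.20 to 1.27), with 2.54% of genes. It was found in 0 of 468 and 0 of 300 macrophage-like cells, which allows a share of cells with a UMI of up to 0.785% and 1.22%, and in no endothelial-like or chromaffin-like cell. A Gabrg3 UMI was held by 6.55% of stress and 3.81% of control fasciculata-like cells and by 9.73% and 6.95% of glomerulosa-like cells. With each cell thinned to 1000 UMIs the ratio was 1.74 in fasciculata-like and 0.03 in glomerulosa-like cells. The border between the zones depended on the clustering. Fasciculata-like cells numbered 473 under stress and 525 in controls, but 762 and 444 when each library was clustered alone, and glomerulosa-like cells 781 and 676, but 439 and 758. The Gabrg3 ratios were then 1.03 and 0.73. The ratio without cell filters was 0.44 in fasciculata-like and 0.39 in glomerulosa-like cells.

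Genes that make, clear or respond to GABA and glutamate were counted in 11 lists. In neuron-like cells 1 gene of all lists was past the fold, Cnih3, an AMPA receptor auxiliary subunit, with 16.7 CPM under stress and 10.5 CPM in controls (0.67, 0.41 to 0.94). It was 1 of 19 auxiliary genes with enough UMIs. Of all genes in these cells 1.16% passed on the higher side and 1.66% on the lower side. None of 7 genes of GABA synthesis and uptake, 15 of the inhibitory synapse, 13 of glutamate synthesis and uptake and 23 of the excitatory synapse passed. The medians of these lists lay between 0.04 and 0.07. Under the fold, Gad1 (0.37, 0.32 to 0.42), Slc32a1 (0.37, 0.32 to 0.43) and Gad2 (0.30, 0.25 to 0.34) led the GABA list. Slc17a6, a marker of glutamatergic neurons, stood at -0.17 (-0.26 to -0.08). The GABAergic clusters held 1087 stress and 889 control cells and the glutamatergic ones 490 and 702. The part of this makeup in the ratios was not tested. In oligodendrocyte-like cells, where 3.05% of all genes were past the fold in either direction, the GABA transporter gene Slc6a11 (30.3 and 16.6 CPM, 0.86) and the glutamate transporter gene Slc1a2 (35.4 and 18.3 CPM, 0.95) were higher, and Nlgn2 (-1.14) and Nlgn3 (-0.67) were lower. The glutamate transporter gene Slc1a3 was higher in precursor-like cells (171 and 107 CPM, 0.67), where Slc12a2 was lower (-0.75), and Cacng7 was lower in astrocyte-like cells (-1.06). In astrocyte-like cells, which numbered 375 under stress and 213 in controls, Slc6a11 stood at 3088 and 3259.6 CPM. Slc1a2 stood there at 2246 and 2428 CPM and Slc1a3 at 3338 and 3248 CPM. The part of astrocyte RNA in the oligodendrocyte-like and precursor-like ratios of these transporter genes was not tested.

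In the pituitary, Homer1, a scaffold of metabotropic glutamate receptors whose short form is induced by activity, was higher under stress in 3 classes. It had 77.5 and 49.1 CPM in corticotrope-like cells (0.66, 0.26 to 1.07), 14.1 and 6.06 CPM in lactotrope-like cells (1.20, 0.51 to 1.96) and 6.68 and 4.23 CPM in somatotrope-like cells (0.66, 0.34 to 0.98). These were 1 of 10, 1 of 12 and 1 of 15 genes of the excitatory scaffold list on the higher side. Of all genes 3.3%, 2.19% and 0.785% passed on that side in the same classes. In somatotrope-like cells Shank2 (-0.77) and Camk2a (-1.31) of the scaffold list were lower. Among AMPA and kainate auxiliary genes, Neto2, which binds kainate receptors, was higher in corticotrope-like cells (40.2 and 17.7 CPM, 1.17), as 1 of 5. Cnih2, an AMPA receptor export chaperone, was lower in lactotrope-like cells (4.38 and 8.59 CPM, -0.96) and in somatotrope-like cells (3.87 and 6.98 CPM, -0.85). In lactotrope-like cells Cpt1c was lower as well (12.7 and 19.7 CPM, -0.63) and Olfm1 was higher (2488 and 1552 UMIs, 0.55, 0.46 to 0.64), so 1 of 7 auxiliary genes was higher and 2 lower. In somatotrope-like cells 4 of 10 auxiliary genes were lower and none higher, in the class where 9.07% of all genes were lower. Gad2, which makes GABA, was higher in lactotrope-like cells (26.5 and 16.9 CPM, 0.64, 0.20 to 1.10), as 1 of 3 genes of its list. Akr1c14, a neurosteroid enzyme, was lower there (7.61 and 21.2 CPM, -1.47), as 1 of 4, beside 4.19% of all genes on the lower side. In somatotrope-like cells genes of the inhibitory synapse that were lower included Nlgn2 (-0.75) and Mocs1 (-0.54). Kcnj6 (-0.62), Glra2 (-0.53), Glul (-0.57) and Srr (-0.58) of other lists were lower too. These somatotrope-like ratios stand beside a median of -0.21 over all genes of the class.

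In the adrenal cortex Adarb1, the enzyme that edits the Gria2 transcript at its calcium site, had 37.1 CPM in stress and 14.2 CPM in control fasciculata-like cells (1.38, 1.04 to 1.74) and 36.2 and 18.5 CPM in glomerulosa-like cells (0.96, 0.71 to 1.23). It was 1 of 2 editing genes with enough UMIs in each class. Gsg1l, an AMPA receptor auxiliary subunit, was higher in both as well, with 77.2 and 49.1 CPM in fasciculata-like cells (0.65, 0.45 to 0.86) and 10.6 and 5.87 CPM in glomerulosa-like cells (0.85, 0.38 to 1.34). Cacng8 (6.19 and 10.9 CPM, -0.81) was lower in fasciculata-like cells and Cacng7 (3.73 and 8.9 CPM, -1.24) in glomerulosa-like cells, so 1 auxiliary gene was higher and 1 lower in each zone, of 7 and 8 with enough UMIs. On the lower side 4.99% of all genes passed in fasciculata-like and 3.36% in glomerulosa-like cells. On the higher side the shares were 3.52% and 2.54%. The 1 receptor gene with enough UMIs in adrenal endothelial-like cells did not pass, beside 6.5% of all genes. In fasciculata-like cells Homer1 (19.9 and 11.6 CPM, 0.78) and Dlg1 (31.8 and 20.1 CPM, 0.66), as 2 of 11 scaffold genes, and the glycine receptor gene Glrb (18.9 and 12.6 CPM, 0.59) were also higher.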

How the data were processed

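The authors deposited 1 table of UMI counts per library, made with Cell Ranger 2.1.1 on the mm10 mouse genome, per the submitters' processing notes; Scanpy is named there without a role, and strand, annotation and cell-calling settings are not given in the sources used here. Barcodes with under 200 genes or over 25% mitochondrial UMIs were left out, as were doublets at 0.8% per 1000 cells by simulation. Cells were clustered per tissue (scanpy 1.11.5, 2000 variable genes, 30 components, 15 neighbours, Leiden resolution 1) without the receptor genes, and named from at least 3 markers. Part of the naming rule was tightened after clusters were seen, and clusters that failed it stayed unnamed. Counts were summed per class and library. Ratios added 0.5 UMI, with exact 95% intervals from scipy 1.17.1, tested on simulated data. Named genes were the most abundant of each receptor type in a class, those past the fold, and the 3 highest and lowest in neurons. The members and lists were chosen with earlier results of these data known. Gene coordinates are on GRCm38. Alternatives changed filters, doublets, clustering, depth, scaling, minimum and fold. Of the 40 members, 5 entered the sums and counts but are not reported here by name.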

Additional observations from a re-analysis of the deposited data

How the results depend on the processing

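No paired analysis was possible because each group holds 1 library. The 2 receptor genes past the fold in neuron-like cells became 0 with cells thinned to 1000 UMIs, 1 with scaling by the median of ratios, 8 with the ratio in all other cells subtracted, 1 with neuron clusters given the same shares, 0 without the Oxt, Avp and Crh cluster, 6 at a log2 ratio of 0.25 and 0 at 1. The 3 in glia became 6 with doublets kept, 0 thinned, 5 at 0.25 and 0 at 1. The 7 pairs of a gene and a class in hormone-producing pituitary cells became 3 thinned, 3 with the other cells subtracted, 11 at 0.25 and 2 at 1. The 2 such pairs in the adrenal gland became 1 without cell filters, with doublets kept and with a minimum of 100 UMIs, and 0 thinned and at 1. The median in neuron-like cells, 0.08, was -0.02 with the other cells subtracted. Of 191 values of named ratios under alternatives, 165 lay within the interval first given and 26 outside it. Sign changed in 13. Of these, 3 were of ratios past the fold, namely Gria2 in ependymal-like cells thinned (-0.78) and Gria2 with other cells subtracted in lactotrope-like (0.15) and thyrotrope-like cells (0.08). The other 10 were of ratios not past the fold. With other cells subtracted they were Gria2 in gonadotrope-like cells (0.46), Gabrb1 in corticotrope-like (0.33) and thyrotrope-like cells (0.12), and Grik1 (0.57) and Grm4 (-0.02) in neuron-like cells. Thinned they were Grm2 (0.38), Grik1 (0.01) and Grm4 (-0.51) in neuron-like cells and Gabrb1 in thyrotrope-like cells (0.07), which was also 0.07 with doublets kept. Leaving out the cell with the most UMIs of a gene was an alternative chosen after seeing the data. Thinning leaves fewer UMIs by construction. The cause of the other changes was not tested.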
